A study of Musa balbisiana with 10 samples.

Results

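RNA from fruit pulp of the banana cultivar Klutuk Wulung (Musa balbisiana), which belongs to the BB group, was compared between ethylene-treated and control fruit on day 1 of ripening. The comparison used 4 of the 10 libraries of the study, chosen by their treatment and day labels, and the other 6 libraries came from day 7. Ethylene-treated fruit had been exposed to ethylene gas at 100 µl/L in a glass container and gave libraries ethylene A and ethylene C. The study's methods describe an incubation and then storage outside the container at room temperature. Where sampling on day 1 fell in that sequence is not stated. Control fruit of the same cultivar received no ethylene and gave libraries control A and control B. Control A was a single-end library and the other 3 were paired-end. The study calls its replicates biological but does not say whether each library came from separate fruit, so the p-values given here measure only the spread between these libraries. The sources do not say whether control fruit were kept in a closed container, so handling and ethylene cannot be told apart.

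Ethylene is the gaseous hormone that starts ripening in climacteric fruit, in which respiration and the fruit's own ethylene synthesis rise together. Its receptors repress a signalling pathway in the absence of the hormone, and binding releases transcription factors that turn on genes for ethylene synthesis, starch breakdown, softening of the cell wall and aroma. In banana, whose unripe pulp is rich in starch, a short exposure to ethylene gas is the usual way to start ripening after harvest. The tables and the reference used here pair the loci with no gene names or products, so loci are described by identifier and position, their roles are not given, and the pulp could not be checked against marker genes of other tissues.

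Each library had its own table of loci with an FPKM value (fragments scaled by transcript length and by the number of mapped fragments). Many loci were assembled in each library separately, so rows were matched by their coordinates. Of 121238 different loci of at least 300 bp in the 4 tables, 96894 were in 1 table only and 15605 stood at the same coordinates in all 4. Among the 15605, a mean FPKM of 1 or more was required for the test, which left 3764 loci, and 2147 of these carried an annotated identifier. The 15605 shared loci held 26.8% and 26.9% of the summed FPKM of control A and control B and 31.5% and 31.7% of that of ethylene A and ethylene C. To reach the rest, overlapping loci of all 10 tables were also merged into regions and their FPKM summed. Of 30802 regions, the 27929 with a row in all 10 tables were kept. These held 98.4% to 99.1% of the summed FPKM of each library. A merged region can join neighbouring genes. The tables give no number of fragments, and the read totals that the study lists for each library were not used here.

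The transcriptome of ethylene-treated fruit was dominated by fewer loci. The 10 most abundant merged regions of each library held 8.48% of the summed FPKM in control A and 10.1% in control B, against 22.7% in ethylene A and 22.4% in ethylene C. It took 1184 regions in control A and 944 in control B to reach 50% of the summed FPKM, but 357 in ethylene A and 382 in ethylene C. The number of loci with an FPKM of at least 1 was 30010 in control A, 28528 in control B, 23371 in ethylene A and 24756 in ethylene C. The groups did not overlap in any of these measures. The measures are given without a test because an exact permutation test of 2 against 2 libraries cannot go below p = 0.33 (two-sided). Control A is single-end, and many loci were assembled in each library separately. On day 7, single-end ethylene A had 30075 loci of at least 1 FPKM, against 23778 and 24156 in paired-end ethylene B and C. Single-end control A had 31519 then, against 28977 and 25438 in paired-end control B and C. The 10 most abundant loci held 13.5% of the FPKM in ethylene A of day 7, against 18.2% and 17.7% in B and C. The part of layout was not tested.

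**Figure D1:**
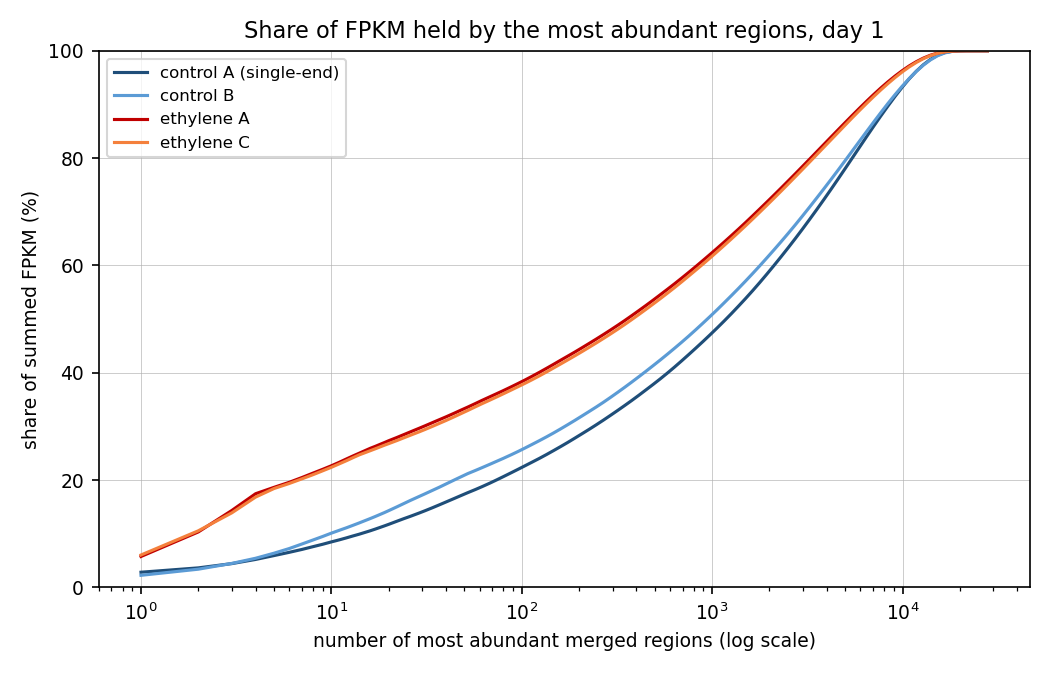
Cumulative share of summed FPKM (%, vertical axis) held by the most abundant merged regions of each day 1 library (number of regions on a log scale, horizontal axis), 1 line per library. Both ethylene lines run above both control lines, and the 10 most abundant regions reach 22.7% and 22.4% with ethylene against 8.48% and 10.1% in control fruit.

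Of the 3764 loci tested, 969 (25.7%) were higher in ethylene-treated fruit and 964 (25.6%) were lower, with limma on log2(FPKM + 1), two-sided, at an adjusted p under 0.05. The median difference was 1.42 on the log2 scale among the higher loci and -1.27 among the lower ones, and it was -0.05 over all loci tested. The rises reached further than the falls. At least 4 on the log2 scale separated the groups for 57 higher loci and 15 lower ones, and at least 6 for 16 higher and 4 lower ones. Called higher loci held 24.8% and 24.2% of the FPKM of the tested loci in control A and control B, and 72.0% and 72.2% in ethylene A and ethylene C. Called lower loci went from 45.0% and 43.8% in the control libraries to 9.82% and 9.78% in the ethylene libraries. The loci were called from these same libraries, so the direction of both shifts was set by the choice of loci. The called loci held most of the FPKM of the tested set in every library. In pulp as a whole, fewer cells of a type and less RNA per cell cannot be told apart. In the merged regions of the 4 libraries, 2712 of 16786 (16.2%) were higher and 3759 (22.4%) were lower. With median-of-ratios scaling that split turned to 3333 higher and 2845 lower, and the median difference of all regions moved from -0.23 to -0.03 on the log2 scale, so the balance between rises and falls depends on the scaling. The log2(FPKM + 1) scale understates the change of low loci.

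**Figure D2:**
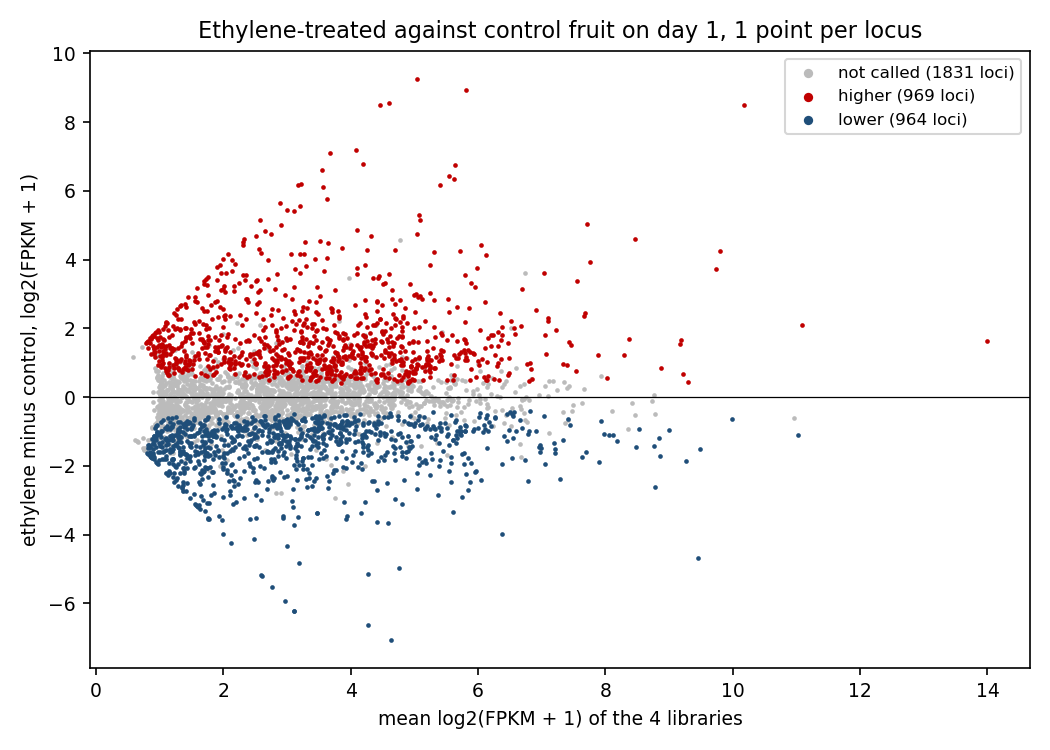
Difference between ethylene-treated and control fruit on day 1 (vertical axis, log2(FPKM + 1)) against the mean level of the 4 libraries (horizontal axis, log2(FPKM + 1)), 1 point per locus, with called higher loci in red, called lower loci in blue and the others in grey. The 969 higher loci extend to larger differences than the 964 lower loci.

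Differences between treatments exceeded those between libraries of 1 treatment. Over the 3764 loci, the median absolute difference was 0.120 on the log2 scale between ethylene A and ethylene C and 0.313 between control A and control B, and it was 0.766 to 0.853 for the 4 pairs that cross treatments. The control pair, which joins a single-end and a paired-end library, thus differed more than the ethylene pair, and layout cannot be told apart from replicate there. The 4 libraries did not overlap between groups for 1438 loci in the higher and 1539 in the lower direction, and 1044 of these were not called. All 1933 called loci were among those that did not overlap. Without ethylene A the test called 363 higher and 226 lower loci, and without ethylene C 361 and 234, because the spread then came from the control pair alone. Without control A it called 1087 and 1093, and without control B 1161 and 1104.

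**Figure D3:**
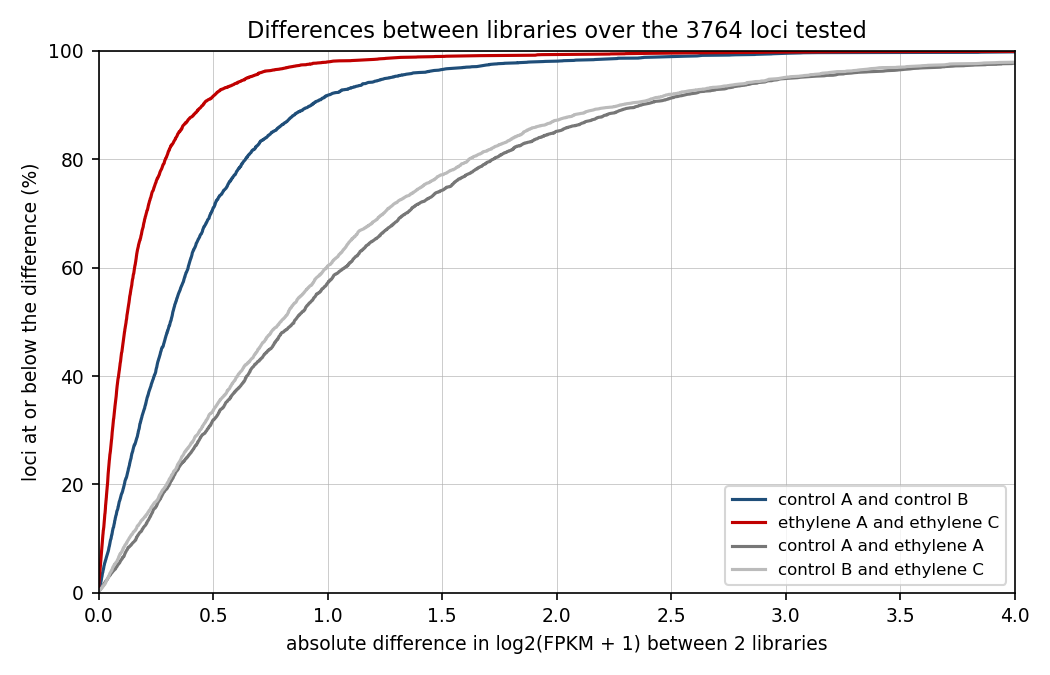
Cumulative share of the 3764 loci tested (%, vertical axis) by the absolute difference in log2(FPKM + 1) between 2 libraries (horizontal axis), for both replicate pairs and 2 of the pairs that cross treatments. The ethylene pair (median 0.120) and the control pair (0.313) lie to the left of both pairs across treatments.

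Mba09_g26900 (chromosome 9, 37384449 to 37385409 in the DH PKW assembly, RefSeq locus tag C4D60_Mb09t26900) was the most abundant of the identified loci that rose. Its FPKM was 36.9 in control A and 97.0 in control B, and 22301 in ethylene A and 21817 in ethylene C. Both ethylene values were far above both control values, and the difference was 8.50 ± 0.49 on the log2 scale (SE, 2 against 2 libraries; limma, adjusted p = 0.0012). This single locus of 961 bp held 4.57% and 4.51% of the summed FPKM of the regions in the ethylene libraries, against 0.0101% and 0.0264% in the control libraries.

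Of the other 4 most abundant identified loci that rose, Mba05_g15610 was low in control fruit and is described with the largest rises, and the rest were well above 1 FPKM there. Mba06_g28720 (chromosome 6, 34287428 to 34288601) had 742 and 1489 FPKM in control A and B and 4535 and 4496 in ethylene A and C, a difference of 2.101 ± 0.37 (limma, adjusted p = 0.013). The groups did not overlap, although the call was lost without either ethylene library (adjusted p = 0.11 without A and 0.12 without C) and with quantile normalization, where the difference was 1.40 (adjusted p = 0.062). Mba02_g15130 (chromosome 2, 26503524 to 26505760) had 190 and 288 FPKM in the control libraries and 3060 and 3101 in the ethylene libraries. Mba03_g21080 (chromosome 3, 29231095 to 29236129) had 76.5 and 65.8 in control fruit and 1783 and 1699 with ethylene. These 2 loci rose by 3.71 ± 0.24 and 4.60 ± 0.13 on the log2 scale.

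The largest relative rises started from low values, with an FPKM below 1 in both control libraries for 5 of the 10 loci. Mba05_g22280 (chromosome 5, 34873809 to 34875507), with the largest difference among identified loci, had 0.270 and 0.394 FPKM in control A and B and 826 and 805 in ethylene A and C. Mba06_g35270 (chromosome 6, 39568216 to 39568759) had 0.314 and 0.199 in control fruit and 495 and 444 with ethylene. Mba05_g15610 (chromosome 5, 14714979 to 14716344) had 0.622 and 2.98 in control fruit and 1210 and 1287 with ethylene. All 3 went from a few FPKM or less to at least 444, with differences of 9.26 ± 0.12, 8.55 ± 0.13 and 8.94 ± 0.46 on the log2 scale (limma, adjusted p = 0.00029, 0.00029 and 0.0011). Another row overlapped Mba05_g15610 in ethylene C, with 64.6 FPKM, and the merged region that holds this locus rose by 7.52 on the log2 scale.

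Mba04_g19130 (chromosome 4, 25046455 to 25050077) had 0.148 and 0.719 FPKM in control A and B and 209 and 201 in ethylene A and C. Mba00_g07210, on the unplaced Bscaffold104, was listed at 0 in control A and at 0.189 in control B, and had 149 and 146 with ethylene. Mba11_g01060 (chromosome 11, 1042970 to 1044767) had 0.124 and 0.242 in control fruit and 116 and 113 with ethylene. In each of these loci the replicate values of a treatment lay close together beside the gap between treatments. The other 3 of the 10 largest rises began higher: Mba08_g22610 with 3.89 and 3.74 in control fruit and 529 and 512 with ethylene, Mba04_g36040 with 3.04 and 5.30 against 437 and 425, and Mba09_g17800 with 3.79 and 5.25 against 452 and 442. For Mba08_g22610 and Mba04_g36040 another row overlapped the locus in a table, and the merged region that holds each rose by 6.81 and 6.07 on the log2 scale.

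**Figure D4:**
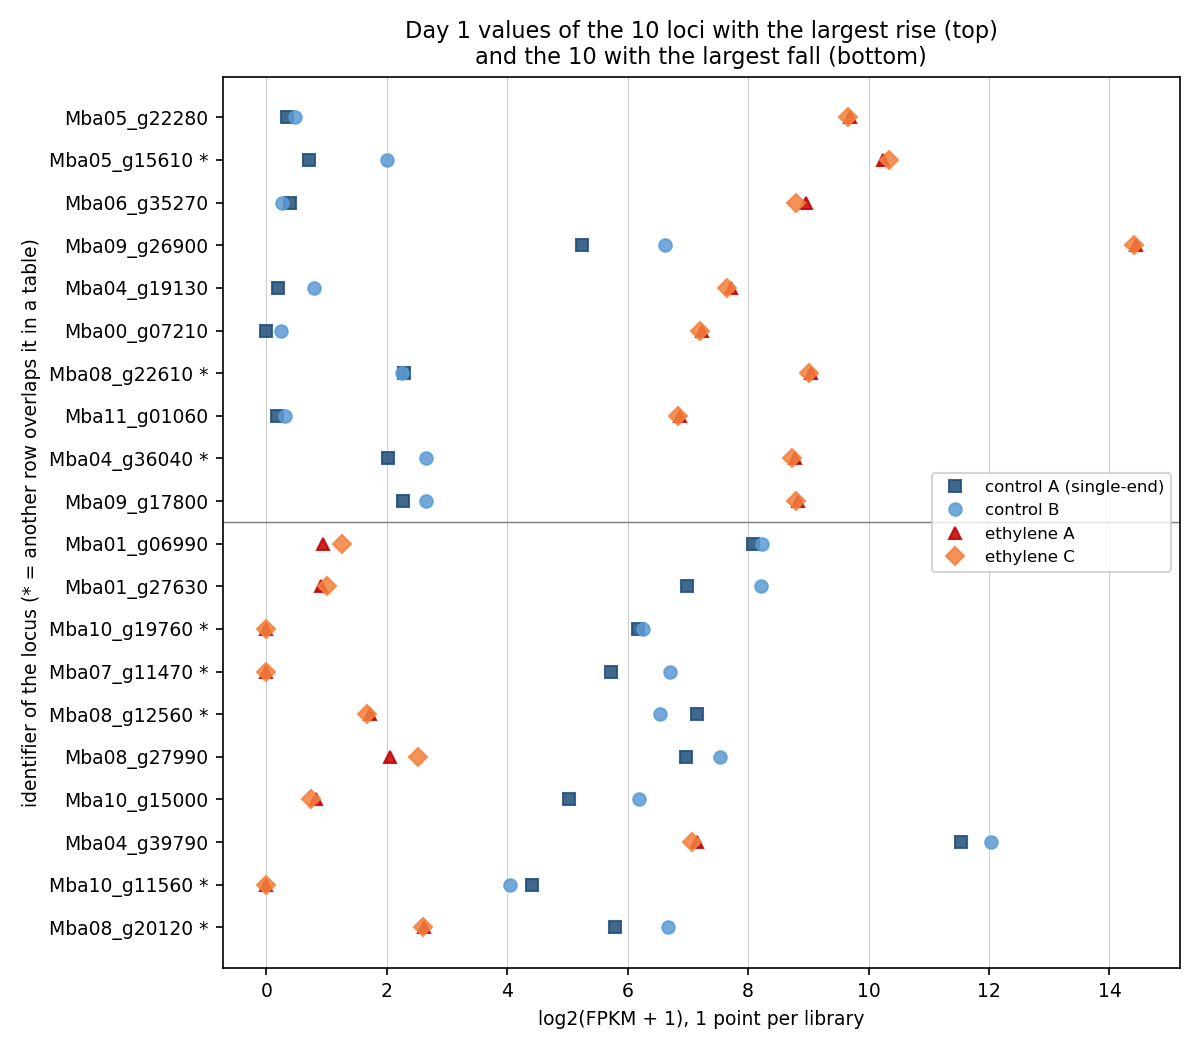
log2(FPKM + 1) of the 10 identified loci with the largest rise (upper block) and the 10 with the largest fall (lower block), 1 point per day 1 library, with an asterisk where another row overlaps the locus in a table. Control points (blue) and ethylene points (red and orange) do not overlap for any locus, as the choice of loci required.

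Mba04_g39790 (chromosome 4, 42362410 to 42363176, locus tag C4D60_Mb04t39790) was the most abundant identified locus that fell. Its FPKM was 2960 in control A and 4197 in control B, and 141 and 134 in ethylene A and ethylene C. The change was -4.67 ± 0.21 on the log2 scale (limma, adjusted p = 0.0009), and it went from the second most abundant merged region of control fruit, with 0.810% and 1.14% of the summed FPKM, to 0.0290% and 0.0276%. Mba08_g07930 had 1138 and 1191 FPKM in the control libraries and 324 and 322 in the ethylene libraries. Mba06_g26770 had 1155 and 1016 in control fruit and 207 and 151 with ethylene. These 2 abundant loci changed by -1.85 and -2.61 on the log2 scale. The other abundant loci called lower changed less: Mba06_g28490 went from 757 and 642 to 304 and 302, and Mba06_g05360 from 609 and 417 to 272 and 261. Without ethylene A or without ethylene C, Mba08_g07930, Mba06_g28490 and Mba06_g05360 were no longer called (adjusted p of 0.056 to 0.20).

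The largest fall of an identified locus was that of Mba01_g06990 (chromosome 1, 5163052 to 5164101), with 270 and 299 FPKM in control A and B and 0.918 and 1.39 in ethylene A and C. The merged region that holds it fell less, from 720 and 727 to 215 and 221 (-1.73 ± 0.16 on the log2 scale). Mba01_g27630 (chromosome 1, 21699381 to 21701109) had 125 and 296 FPKM in control fruit and 0.869 and 1.02 with ethylene, and it formed a region by itself. Mba08_g27990 had 124 and 183 in control fruit and 3.16 and 4.72 with ethylene, and Mba10_g15000 had 31.6 and 71.4 against 0.779 and 0.667. Mba08_g20120 had 54.1 and 101 in control fruit and 5.11 and 5.10 with ethylene, and its merged region fell by 3.92 on the log2 scale. In all 5 the regions were called lower too, but each region sum includes the row of the locus. For Mba10_g15000 the values of region and locus were the same.

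The merged regions that hold the other 4 of the 10 largest falls did not all fall. Mba08_g12560 had 141 and 91.4 FPKM in control fruit and 2.30 and 2.17 with ethylene. The region that holds it rose from 152 and 106 to 616 and 606 (2.26 ± 0.23 on the log2 scale; limma, adjusted p = 0.0031). Rows overlapping this locus had only 0.200 and 0 FPKM with ethylene, so the FPKM of its region then lay almost all in rows beside it. Mba10_g11560 had 20.3 and 15.5 in control fruit and was listed at 0 in both ethylene libraries, where an overlapping row had 241 and 150, and its region rose by 2.46 ± 0.27 (adjusted p = 0.0037). Mba10_g19760 had 71.1 and 75.7 in control fruit and was listed at 0 with ethylene, while its region differed by -0.40 ± 0.18 (adjusted p = 0.14). Rows overlapping this locus had 3.44 and 2.77 FPKM with ethylene, of 123 and 113 in its region. Mba07_g11470 had 51.9 and 103 in control fruit and was listed at 0 with ethylene, and its region fell by 1.76 on the log2 scale (adjusted p = 0.016). The direction of a single row was therefore no sure guide to that of the region around it.

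Of all 1933 called loci, 1506 (77.9%) lay in a merged region called in the same direction. A further 11 lay in one called in the opposite direction and 416 in one that was not called. Of all merged regions tested, 16.2% were called higher and 22.4% lower. The sum of a region includes the row of the locus itself, so the agreement is in part built in. Of the 34 called loci listed at 0 in both ethylene libraries, 20 lay in a called region, 18 of them in one that fell and 2 in one that rose. Of the 22 called loci listed at 0 in both control libraries, 13 lay in a called region, 10 of them in one that rose. A row listed at 0 was seldom the only row at its position: 36 of the 44 tested loci at 0 in both ethylene libraries, and 19 of the 25 at 0 in both control libraries, were overlapped by another row. Of all 3764 tested loci, 1739 were overlapped by another row. At most 2 rows of a day 1 table had a status other than OK, so the zeros were not rows marked as failed, and no fold is given against them.

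Among identified loci listed at 0 in both control libraries, Mba04_g23160 (chromosome 4, 29896199 to 29896735) had no overlapping row, and it had 5.69 and 7.38 FPKM with ethylene. Mba06_g17810 had 13.7 and 12.04 with ethylene, and its region rose from 4.40 and 9.82 to 48.2 and 41.9. Mba03_g11250 had 17.5 and 16.3 with ethylene, but its region had 61.4 and 24.3 in control fruit and 44.5 and 44.4 with ethylene. That region was not called (adjusted p = 0.75), nor was the region of Mba08_g14300 (adjusted p = 0.22), whereas that of Mba08_g30410 was higher by 0.93 on the log2 scale (adjusted p = 0.040), a call that was lost in the fit of all 10 libraries (adjusted p = 0.078). On the other side, Mba07_g10240 had 9.38 and 12.1 FPKM in control fruit and was listed at 0 with ethylene, and an overlapping row had 11.3 and 11.1 there. Its region was not called (-0.47 ± 0.19; adjusted p = 0.11). Mba07_g10390, with 12.4 and 8.996 in control fruit and 0 with ethylene, lay in a region that fell by 1.00 on the log2 scale (adjusted p = 0.024).

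The merged regions brought in loci whose rows had different coordinates in each table. The most abundant region in all 4 libraries lay on chromosome 6 (32928189 to 32932292, locus tag C4D60_Mb06t27070), with 10354 and 8302 FPKM in control A and B and 28144 and 29252 in ethylene A and C. It rose by 1.63 ± 0.28 on the log2 scale, and this call was lost without either ethylene library. A region of 5 locus tags on chromosome 1 (3727394 to 3741717), which includes Mba01_g05020, Mba01_g05030 and Mba01_g05040, rose from 1391 and 3114 to 19523 and 16199, a call also lost without either ethylene library. A region on chromosome 10 (9401233 to 9414365), with no identifier, rose from 82.3 and 148 to 15226 and 14225, a difference of 7.05 ± 0.32. With Mba09_g26900, these made up the 4 most abundant regions with ethylene, and the 10 most abundant there held 4.27% and 5.26% of the summed FPKM in control A and B. The 10 most abundant in control fruit held 8.13% and 10.1% in control A and B, and 12.7% and 12.3% in ethylene A and C. The lists shared 3 regions.

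The largest rise of any tested region was that of Mba06_g29120 (chromosome 6, 34725641 to 34728448, locus tag C4D60_Mb06t29120). It had 0.860 and 5.33 FPKM in control fruit and 4357 and 4209 with ethylene, a difference of 10.29 ± 0.57 on the log2 scale (limma, adjusted p = 0.0011). A region of 2 locus tags on chromosome 4 with Mba04_g33940 and Mba04_g33950 had 1.79 and 0.383 in control fruit and 750 and 710 with ethylene. The region of Mba02_g14110 and Mba02_g14120 on chromosome 2 had 1.87 and 2.47 against 1055 and 1024. Mba04_g31600 had 0.389 and 0.978 against 340 and 319. A region of 135269 bp on chromosome 8, which joins 7 identifiers from Mba08_g19320 to Mba08_g19380, rose from 2.80 and 3.99 to 1645 and 1721, and the sum does not show which of the 7 it came from. In each of these, both ethylene values lay far above both control values.

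Some regions that lie near each other stood out, chosen after their values were seen. On chromosome 10, Mba10_g13870 fell from 151 and 214 FPKM in control fruit to 4.15 and 2.56 with ethylene. Mba10_g13890, whose region lies 11472 bp further along, rose from 222 and 287 to 5800 and 7721. The 2 regions, with another merged region between them, moved in opposite directions, by -5.40 ± 0.28 and 4.72 ± 0.25 on the log2 scale. On chromosome 9, a region that overlaps locus tag C4D60_Mb09t26910 lies 10896 bp beyond Mba09_g26900. It also rose, from 0.148 and 0.155 to 650 and 267, so both rose there.

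Among regions, the 10 largest falls included Mba09_g11240 (chromosome 9), with 232 and 308 FPKM in control fruit and 8.79 and 10.6 with ethylene. Mba06_g33080 (chromosome 6) had 13.3 and 39.0 against 0.0730 and 0.0607, and the region with Mba06_g13590 had 47.5 and 27.3 against 0.700 and 0.727. Chromosome 3 held 3 of the 10, each with 1 locus tag and no identifier in the tables. They fell from 132 and 191 to 3.85 and 3.77 (C4D60_Mb03t02120), from 80.8 and 27.9 to 1.40 and 1.08 (C4D60_Mb03t01500) and from 36.0 and 33.4 to 0.679 and 0.899 (C4D60_Mb03t19490). Mba01_g29340, an abundant region of control fruit with 2638 and 3470 FPKM, fell less, to 1341 and 1297 (-1.20 ± 0.23; limma, adjusted p = 0.014), and the call was lost without either ethylene library.

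These 20 regions were then looked up in the day 7 libraries, whose FPKM values did not enter their ranking. The day 7 tables did help to set the region borders, and a region without a row in each of them was left out. Over all 16821 regions tested, 8.75% were called higher with ethylene on day 7 and 4.71% lower. All 10 regions with the largest rise on day 1 were also called higher with ethylene on day 7, by 4.39 to 9.82 on the log2 scale. Of the 10 with the largest fall, only Mba10_g13870 was called lower on day 7 (by 0.79), and the others differed there by between -0.69 and 0.06. Mba04_g39790, for example, had 2037, 2302 and 2432 FPKM in ethylene A, B and C on day 7, and 2949, 2896 and 3832 in the control libraries. Mba01_g27630 had 117, 202 and 170 with ethylene and 198, 139 and 283 in control fruit on day 7, with overlapping groups. The strong falls of these 2 loci were therefore not found at day 7.

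The difference between the days was itself tested in the 10 libraries, as an interaction of treatment and day in limma. Layout was uneven over the groups, because control A of day 1 and control A and ethylene A of day 7 were single-end. The interaction passed for 2391 of 16821 regions (14.2%), 993 with a more positive ethylene difference on day 1 and 1398 with a more negative one. With median-of-ratios scaling 1390 and 1247 passed in these directions. Among the regions with the largest changes on day 1, it passed for all 10 falls and for 5 of the 10 rises, but the choice by day 1 values favours a difference. For Mba04_g39790 it was -4.16 ± 0.31 on the log2 scale (adjusted p = 7.1e-05). Without ethylene A of day 1 the interaction passed for 1160 regions and without ethylene C for 1147.

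Mba11_g01060, chosen after its values were seen, was among the 10 identified loci with the largest rise on day 1 and had no such rise on day 7. Its FPKM on day 7 was 0.264, 0.312 and 0.220 in ethylene A, B and C and 0.0278, 0.449 and 0.0767 in the control libraries, against 116 and 113 with ethylene on day 1. The ethylene difference was 6.50 ± 0.29 larger on day 1 on the log2 scale (interaction, limma, adjusted p = 6e-06). The locus was chosen for this difference between the days, so that the interaction passed was largely set by the choice. Mba05_g15610 kept 1048 to 1128 FPKM with ethylene on day 7, close to its 1210 and 1287 on day 1, with 0.673 to 2.16 in control fruit. Mba09_g26900 had 13996 to 18483 with ethylene on day 7, and Mba05_g22280 had 54.5 to 63.1. The last of these was still above its control range of 0.183 to 0.566, at a level well below its 826 and 805 on day 1.

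Calls became more frequent with level. Of the loci with a mean FPKM of 1 to 5, 43.8% were called, with 253 higher and 371 lower of 1425. The share was 49.9% of 1450 loci at 5 to 20, 64.7% of 731 at 20 to 100 and 71.5% of 158 at 100 or more, where 65 were higher and 48 lower. Falls outnumbered rises in the lowest class and rises outnumbered falls in the others. Loci with an annotated identifier had 676 higher and 507 lower of 2147, and loci known only as assembled rows had 293 higher and 457 lower of 1617. The level classes use means of the same libraries that made the calls. A locus high only with ethylene thus enters a high class through its ethylene values. The precision of low loci also differs from that of abundant ones. The part of either in these shares was not tested.

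The called loci were spread over all 11 chromosomes. Between 48.6% (chromosome 1) and 56.8% (chromosome 7) of the tested loci of a chromosome were called. Chromosome 7 had 90 higher and 69 lower of 280 loci, and chromosome 10 had 80 higher and 111 lower of 364. The unplaced scaffolds stood apart, with 6 higher and 51 lower of 157 loci and a median difference of -0.85 on the log2 scale, although Mba00_g07210 on one of them was among the 10 largest rises. No test was made between chromosomes.

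**Figure D5:**
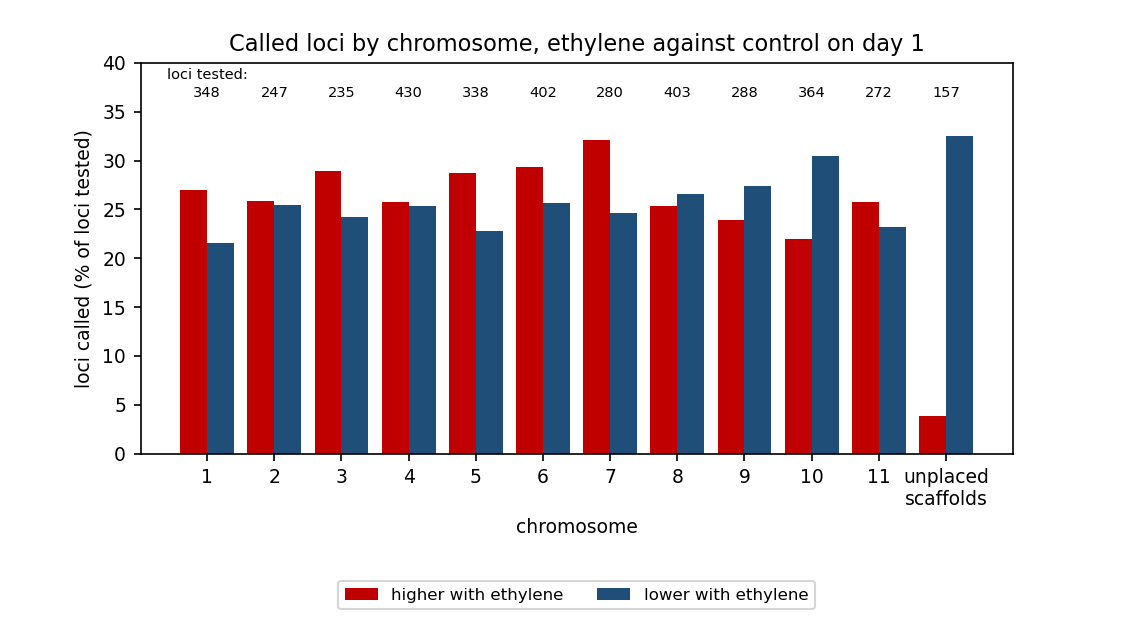
Share of the tested loci of each chromosome (%, vertical axis) called higher (red) or lower (blue) with ethylene on day 1, with the number of loci tested above the bars. The share called higher runs from 22.0% (chromosome 10) to 32.1% (chromosome 7) on the 11 chromosomes, while the unplaced scaffolds have 6 higher and 51 lower of 157 loci.

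A small set of loci stayed close in all 4 libraries. In 160 of the 3764 loci the highest of the 4 values was at most 25% above the lowest. The 5 most abundant of them with an identifier are given here. Mba02_g14020 (chromosome 2, 25766327 to 25769430) had 122 and 122 FPKM in control A and B and 127 and 125 in ethylene A and C. Mba09_g01650 had 70.9 and 68.2 in control fruit and 67.4 and 65.9 with ethylene. Mba06_g05370 had 69.4 and 72.7 in control fruit and 75.5 and 75.1 with ethylene. By number it follows Mba06_g05360, which was called lower. Mba04_g19310 had 68.2 and 57.3 against 63.7 and 66.1. Mba05_g25460, the most abundant of the 5, had 195 and 191 in control fruit and 166 and 163 with ethylene. Its groups did not overlap, and it was not called (-0.23 ± 0.11; limma, adjusted p = 0.15). It was called lower with quantile normalization (-0.47; adjusted p = 0.015), without control A (-0.21; adjusted p = 0.042) and without control B (-0.24; adjusted p = 0.032).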

How the data were processed

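Per the labels and the study's methods, the authors checked reads from fruit pulp with FastQC 0.11.8, trimmed them with Trimmomatic 0.38.0, mapped them with TopHat to the DH PKW assembly and quantified each library with Cufflinks, for which the processing notes give 2.2.2.1 and the study's methods another version. The authors deposited FPKM values, already scaled by length and library size in each library, with lower and upper bounds. How strand and reads with several mapping sites were handled is not stated in these sources, and copies of near-identical genes could not be checked. From the deposited values, rows of at least 300 bp were matched by coordinates (1-based) over the 4 day 1 libraries, and rows at the same coordinates were summed. Loci whose FPKM averaged 1 or more were tested as log2(FPKM + 1), a pseudocount of 1, with limma 3.58.1 in R 4.3.3, with group means, a trended variance prior, 2 residual degrees of freedom, two-sided, with Benjamini-Hochberg adjustment over all loci tested and a threshold of 0.05. Tables and figures were made in Python 3.11.15 with pandas 2.3.3 and matplotlib 3.10.9. The fit was also run on simulated data that held known changes, built from the means and spreads of these data.

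Named loci carried an identifier in any of the 10 tables, and, except for the last kind, were called with groups that did not overlap. They were the 10 with the largest rise and the 10 with the largest fall, the 5 most abundant called in each direction, the 5 highest of those listed at 0 in both libraries of a group, and the 5 most abundant whose highest library was at most 25% above the lowest. Named regions were the 10 most abundant in each treatment and the 10 with the largest rise and fall, of which the text gives those that add to the loci. The comparison, loci and lists were chosen with earlier results of these data known. The regions of 4 libraries, the loci without an overlapping row and the interaction with day were added after the data were seen. Planned lists of ripening genes and tissue markers were not run, because the symbols of the RefSeq table (assembly BananaB_V1) equal its locus tags. For single loci, locus tags are printed only where spans were identical. For merged regions, they are the tags that overlap the region, on chromosomes where most identifier spans matched. A tag given for a region thus need not span it. The replicate numbers in the labels, which give ethylene C and control B the same number, were not taken as pairs. Alternatives were other pseudocounts, filters, scalings, variance models, merged regions, a replicate block and each library left out.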

Additional observations from a re-analysis of the deposited data

Results flagged for a closer look

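The ethylene difference of day 1 was set against that of day 7 in merged regions, as an interaction of treatment and day in limma with all 10 libraries and adjustment over 16821 regions, and the named regions that passed are given here. The values are the day 1 difference minus the day 7 difference on the log2 scale. The regions were chosen by their level or difference on day 1 and share those values with the test, and Mba11_g01060 was chosen because it had no rise on day 7.

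Among regions that were higher with ethylene on day 1, the difference was larger on day 1 for Mba11_g01060 (6.50), the region with locus tag C4D60_Mb09t26910 on chromosome 9 (4.11), Mba10_g13890 (3.93), Mba05_g22280 (3.86), a region with no identifier on chromosome 7 from 29429361 to 29430796 (2.95), Mba06_g35270 (2.11) and Mba09_g26900 (2.06). It was smaller on day 1 than on day 7 for the region of Mba02_g14110 and Mba02_g14120 (-1.27). Control fruit also differed between the days in some of these. Control FPKM was 194 and 212 on day 1 and 842 to 1036 on day 7 for the chromosome 7 region. It was 222 and 287 against 508 to 618 for Mba10_g13890, and 36.9 and 97.0 against 169 to 212 for Mba09_g26900. It stayed below 1 on both days for Mba11_g01060, Mba05_g22280, Mba06_g35270 and the region with C4D60_Mb09t26910.

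Among regions that were lower with ethylene on day 1, the difference was more negative on day 1 for Mba01_g27630 (-6.32), Mba10_g13870 (-4.61), Mba09_g11240 (-4.40), the region with Mba06_g13590 (-4.37), Mba10_g15000 (-4.28), Mba04_g39790 (-4.16), Mba06_g33080 (-3.90) and Mba01_g29340 (-1.13). The same was measured for the regions of C4D60_Mb03t02120 (-5.11), C4D60_Mb03t01500 (-3.98) and C4D60_Mb03t19490 (-3.63) on chromosome 3. For Mba01_g29340, control FPKM was 2638 and 3470 on day 1 and 927 to 1488 on day 7. Its ethylene FPKM was 1341 and 1297 on day 1 and 987 to 1116 on day 7. Of these 19 regions, 16 kept the call under all 13 alternatives of that fit, Mba09_g26900 kept it under 11, and Mba01_g29340 and the region of Mba02_g14110 kept it under 3.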

How the results depend on the processing

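Of the 34 named loci that were called, 23 kept direction and call under every alternative run that still held them. Requiring 1 row per table or a status of OK changed no locus or call. The named loci were mostly chosen by large changes or high levels, which favours keeping the call. Among merged regions of 10 libraries, 2877 were higher and 4173 lower. The regions of 2 named loci that fell were higher there, by 2.26 for Mba08_g12560 and 2.46 for Mba10_g11560 on the log2 scale. In the 4 day 1 libraries, merged regions gave 2712 higher and 3759 lower, or 3333 and 2845 with median-of-ratios scaling, 2630 and 3126 without control A, 2844 and 3932 without control B, 1339 and 1381 without ethylene A, and 1364 and 1516 without ethylene C. Regions outnumber matched loci, so counts of calls are larger by construction. A mean FPKM of at least 5 left 2339 loci, with 732 higher and 605 lower. Loci that no other row overlaps (2025) gave 574 higher and 562 lower when tested alone. Leaving out each library in turn gave 361 to 1161 higher and 226 to 1104 lower loci, and 1147 to 2355 regions whose ethylene difference differed between the days. With 1 library left in a group, that library is assumed to vary like the other group. With the replicate block the test called 890 higher and 913 lower loci. The label numbers set control B and ethylene C, which differ in letter, as replicate 2. Replicate numbers did not deviate together (r = -0.18 over 3764 loci). With 2 libraries per group, the crossed numbers give the same value with the opposite sign by construction (r = 0.18). As a block, the crossed numbers gave 942 and 977. Fragment numbers per locus were not used, which limits what can be said of low loci, and loci whose rows differ between tables were reached only as merged regions.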
